A study of Rattus norvegicus with 9 samples.

Results

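The collagen genes described here are the 27 rows of each deposited table whose gene symbol has the form Col, number, a, number, out of 17120 gene rows used. The rule reads the symbol alone and uses no measured value. The tissue is ileum, where the small intestine ends. All rats were Otsuka Long-Evans Tokushima fatty (OLETF) animals, which become obese and diabetic and carry no working cholecystokinin-A receptor, and all tissue was taken 1 month after the operation. Of the 3 groups, each with 3 samples, the first had a Roux-en-Y gastric bypass (RYGB) and decreased FDG in the ileum. The second had RYGB and increased FDG, and the third had sham surgery. FDG is read here as the glucose analogue fluorodeoxyglucose, since the labels use the abbreviation alone. RYGB routes food from a small gastric pouch straight into the jejunum, and the series asks what the operation does to the small intestine. Total RNA was sequenced, and values are FPKM, fragment counts scaled by transcript length and by the mapped fragments of the library. The labels do not tell whether replicates are separate animals, and p-values here therefore reflect the spread among these samples alone, which may be technical.

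Collagens are secreted proteins whose chains wind around one another into rods, and they make up most of the protein of the extracellular matrix. In the gut wall, fibrillar collagens of types I, III and V form the fibres of the lamina propria and submucosa. Type IV collagen forms the sheet of the basement membrane under the epithelium and around vessels and muscle cells. Types XV and XVIII sit in the basement membrane zone, and type VI forms beaded filaments between fibres and cells. Fibroblasts and smooth muscle cells make most of the fibrillar chains. In pieces of whole tissue, fewer cells of a kind and less RNA per cell cannot be told apart.

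The deposited values come as a RYGB table, with the FDG-decreased and the FDG-increased libraries, and a sham table, with FDG-increased and sham libraries. They were scaled separately, and tests were run within a table. Summed over genes, a library held 465697 to 864511 FPKM, and read depth is unknown. A pair of FDG-increased libraries stands in both tables: columns 2 and 3 of the sham table hold the libraries of columns 1 and 2 of the RYGB table. The 12 columns therefore hold 10 distinct libraries, 4 of them FDG-increased, where the labels list 3. The libraries found in a single table are FDG-increased replicate 3 of the RYGB table and FDG-increased replicate 1 of the sham table. Sham replicate 1 stood apart from the other sham libraries by its regional markers. Its ileal bile acid genes Fabp6 and Slc10a2 summed to 25.2 FPKM, against 8442 and 11467 FPKM in sham replicates 2 and 3. Lct, Gip and Gata4, genes of the upper intestine, summed there to 394 FPKM, against 29.1 and 4.10 FPKM.

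Col3a1, the chain of type III collagen, had the highest level of all collagens in every column, at 107 to 204 FPKM in the sham table and 118 to 158 FPKM in the RYGB table. Col6a2 of type VI, Col4a1 of type IV, Col18a1 and Col1a1 of type I followed in the same order of mean level in both tables. Together these 5 genes made up 73.5% to 81.1% of the summed collagen FPKM of a library. Col6a4, Col5a2, Col15a1 and Col5a1 came next, with means over the sham table of 22.1, 19.1, 14.8 and 14.0 FPKM. Neighbours among these 9 genes had overlapping ranges over the 10 libraries, apart from Col3a1, whose lowest value of 107 FPKM lay above the 89.2 FPKM that Col6a2 reached.

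The level needed for a test, 1 FPKM averaged over the 6 libraries, was reached by 17 of 27 collagens in the RYGB table and by 18 of 27 in the sham table. The difference is Col17a1, a transmembrane collagen that anchors epithelial cells to the basement membrane, with a mean of 0.639 FPKM in the RYGB table and 1.241 FPKM in the sham table. Col4a3, Col5a3, Col7a1, Col9a1, Col9a2, Col11a1, Col2a1 and Col26a1 stayed below 1 FPKM on average in both tables. In the sham table Col4a3 was higher in FDG-increased ileum without overlap, at 0.907, 0.901 and 0.981 FPKM against 0.521, 0.836 and 0.729 FPKM in sham ileum. The fibrillar Col5a3 lay lower without overlap, at 0.246 to 0.558 FPKM in FDG-increased ileum and 0.586 to 1.94 FPKM in sham ileum. Col7a1, the chain of anchoring fibrils, did likewise, at 0.0725 to 0.102 FPKM in FDG-increased ileum and 0.107 to 0.149 FPKM in sham ileum. Among genes that reached the level for a test, 10.7% lay higher and 4.44% lower without overlap. No such share was taken for genes below that level. Col1a2, the partner chain of Col1a1 in type I collagen, was listed at 0 in all 12 columns. Since Col1a1 stood between 14.3 and 44.1 FPKM in the same libraries, such a listing can be a failed estimate, and nothing is read from it. A further 17 collagen symbols of the RefSeq rat gene table, Col4a2, Col6a1 and Col6a3 among them, had no row under that symbol. They could not be analysed here, so type IV and type VI are only partly covered.

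**Figure D1:**
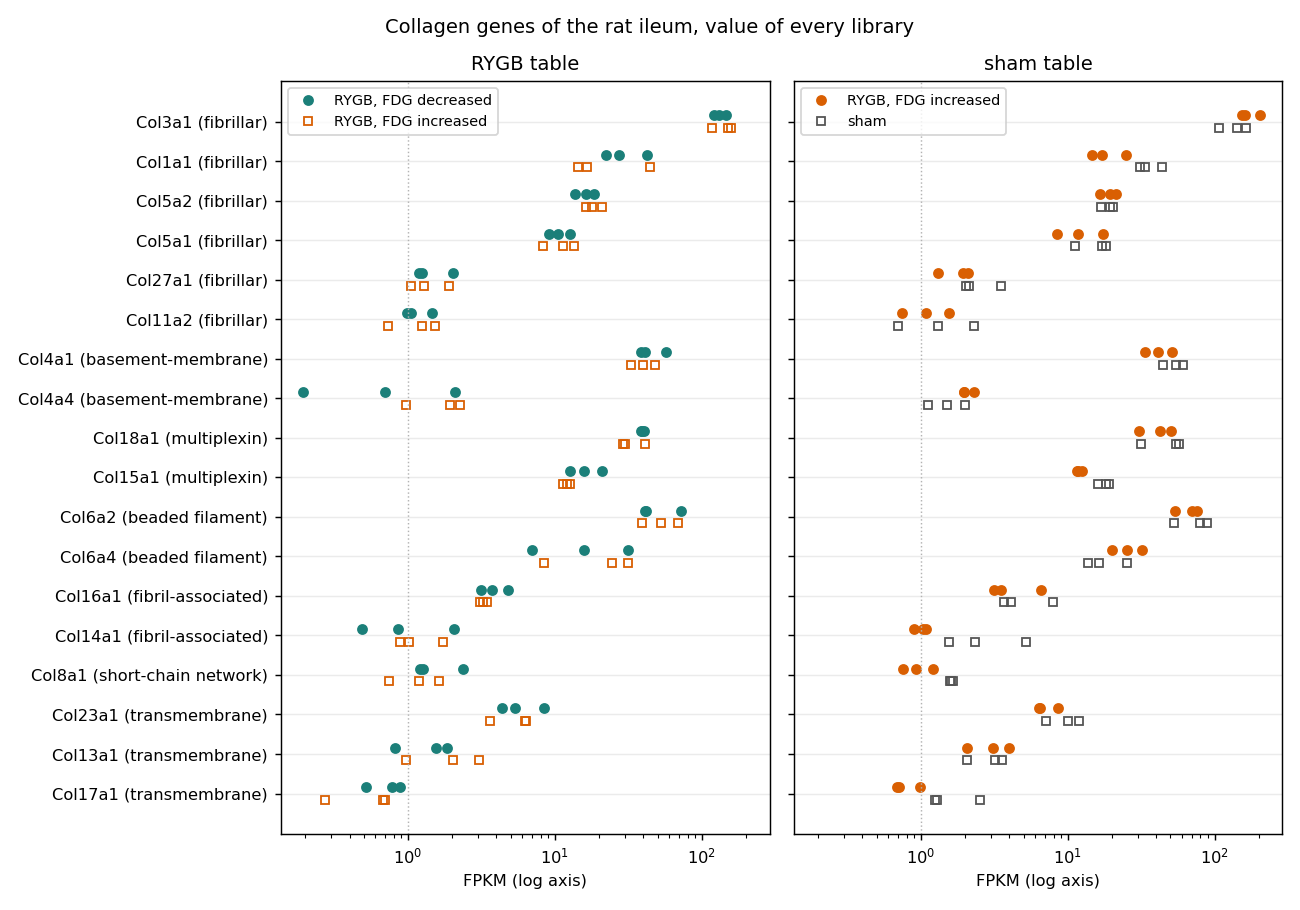
FPKM on a log axis in every library for each collagen tested in at least 1 table, grouped by structural class, with FDG-decreased (circles) above FDG-increased (squares) in the RYGB table and FDG-increased (circles) above sham (squares) in the sham table. The dotted line marks 1 FPKM. Col3a1 lies to the right of all others, and Col1a1, Col8a1, Col14a1, Col15a1 and Col17a1 show no overlap between the groups in the sham table.

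The members differed in how far they spread. Over the 10 distinct libraries, with the RYGB table set on the scale of the sham table by the factor 1.0217 of the shared libraries, Col5a2 varied least, with a coefficient of variation of 12.2% and a highest value 1.55 times the lowest. Col4a1 followed with 18.7% and Col3a1 with 18.9%. Col1a1 varied by 36.3%, from 14.6 to 45.0 FPKM. Among tested members Col14a1, a collagen that coats the surface of fibrils, varied most, by 78.1%. These spreads cover all groups at once and include the step between tables.

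No collagen passed the test between FDG-increased RYGB ileum and sham ileum. In limma with Benjamini-Hochberg adjustment over all 10801 genes tested, 0 of 18 collagens were called at 0.05, and 0.037% of all genes were called. At an unadjusted p under 0.05, 3 of 18 collagens (Col1a1, Col14a1 and Col15a1) lay lower in FDG-increased ileum, beside 1.69% of all genes on that side. None lay higher, beside 6.15% of all genes, and in either direction the share of all genes was 7.84%. Of the tested collagens, 13 of 18 had a difference below 0 and the median was -0.26 on the log2(FPKM + 1) scale. Over all genes, 35.3% had a difference below 0, 64.7% one above 0, and the median was 0.13. That median moved to 0.00 with the columns shifted to the same median and to -0.024 with quantile normalization, where 15 of 18 collagens were below 0. In 5 of 18 collagens all 3 FDG-increased libraries lay below all 3 sham libraries, beside 4.44% of all genes tested. Col8a1 and Col17a1, a pair of these 5, averaged below 1 FPKM in FDG-increased ileum and passed the level filter through the sham libraries, so they had to lie lower. No tested collagen lay above sham in all libraries, beside 10.7% of all genes.

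Of the fibrillar collagens, Col1a1 had the difference farthest below 0, and Col3a1 one above 0 that turned to -0.057 with quantile normalization. Col1a1 stood at 25.0, 17.0 and 14.6 FPKM in the FDG-increased libraries, against 43.9, 31.1 and 33.3 FPKM in the sham libraries. Every FDG-increased library of the table was below every sham library. The difference was -0.92 on the log2 scale (95% interval -1.59 to -0.24), with a limma Benjamini-Hochberg adjusted p of 0.548. Leaving out 1 library at a time gave -1.13 to -0.76. Sham replicate 1 held the highest Col1a1 of the sham libraries, and without it the difference was -0.77. All sham libraries came from sequencing lane 7. Against the single FDG-increased library of that lane, at 17.0 FPKM, the difference was -1.03, with the lone library assumed to vary like the sham ones. The lane of FDG-increased replicate 1 is not known, so lane and group are only partly separable here.

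Col3a1 stood at 204, 154 and 161 FPKM in the FDG-increased libraries, against 163, 107 and 142 FPKM in the sham libraries, so the groups overlapped. Its difference was 0.34 (95% interval -0.39 to 1.08, limma Benjamini-Hochberg adjusted p = 0.834). The type V chains, which start and limit the growth of fibrils, overlapped as well. Col5a1 averaged 12.5 ± 4.59 FPKM in FDG-increased ileum and 15.5 ± 3.70 FPKM in sham ileum (SD, n = 3 each). Col5a2 averaged 19.2 ± 2.44 FPKM in FDG-increased ileum and 19.0 ± 1.79 FPKM in sham ileum (SD, n = 3 each), a difference of 0.01 with a 95% interval of -0.54 to 0.57. Under quantile normalization or with the columns shifted to the same median, Col5a2 lay lower, by -0.17 and -0.12. The 6 tested fibrillar collagens, of 10 rows, had a median of -0.24, with 4 below 0. Their summed level was 227 ± 37.3 FPKM in FDG-increased ileum and 213 ± 35.6 FPKM in sham ileum (SD, n = 3 each), since Col3a1 takes most of that sum.

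The ratio of Col3a1 to Col1a1 within a library does not depend on the scaling between libraries or tables. It was 8.15, 9.04 and 11.03 in the FDG-increased libraries of the sham table, against 3.71, 3.43 and 4.27 in the sham libraries. The groups did not overlap, and an exact two-sided permutation test on the log2 ratio gave p = 0.1, the smallest value that 3 against 3 libraries allow. The ratio was taken up after the values had been seen. The FDG-increased library held only by the RYGB table had a ratio of 2.67, below all sham libraries. Its Col1a1 was 45.0 FPKM on the scale of the sham table, above all sham libraries, where the other FDG-increased libraries were below all of them. The lower Col1a1 thus holds for 3 of the 4 distinct FDG-increased libraries.

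**Figure D2:**
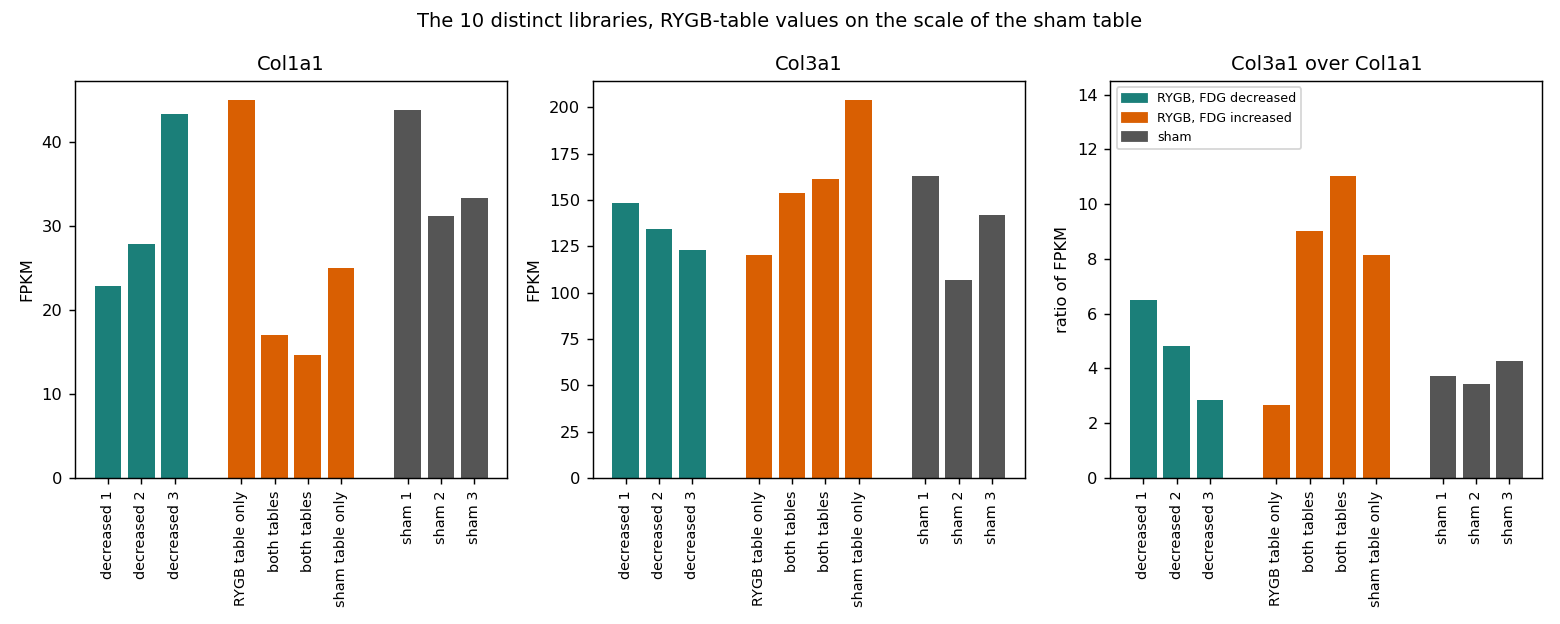
Bars give the FPKM of Col1a1 (left) and Col3a1 (middle) and their ratio (right) in each of the 10 distinct libraries, in the order FDG-decreased, FDG-increased and sham, with RYGB-table values on the scale of the sham table. The FDG-increased library that is absent from the sham table has the highest Col1a1, 45.0 FPKM, and the lowest ratio, 2.67.

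The basement-membrane collagens showed no common direction. Col4a1, the main chain of type IV with its partner Col4a2, stood at 51.1, 40.9 and 33.8 FPKM in FDG-increased ileum, against 54.9, 44.5 and 60.8 FPKM in sham ileum. The ranges overlapped, and the difference was -0.35 (95% interval -1.03 to 0.33, limma Benjamini-Hochberg adjusted p = 0.814). Col4a4, a chain of the specialised type IV network, stood at 1.96, 2.31 and 1.96 FPKM in FDG-increased ileum, against 1.12, 2.003 and 1.51 FPKM in sham ileum. It differed by 0.28, again with overlapping groups (95% interval -0.23 to 0.80). Only these 2 of the 3 basement-membrane rows reached the level for a test, and their median of -0.03 averages opposite signs.

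Col4a3 and Col4a4 lie head to head in the rat genome, a layout known for pairs of type IV genes. Their promoter windows, 250 bases before to 50 after the start of each gene, are shown because the windows of both genes overlap. In RefSeq's GRCr8 build the windows are chr9:91323740-91324039 on the plus strand for Col4a3 and chr9:91323528-91323827 on the minus strand for Col4a4. They share 88 bases, with 412 bases between the starts. Capitals mark the shared bases, which each line reads from its own strand, 5′ to 3′.
Col4a3: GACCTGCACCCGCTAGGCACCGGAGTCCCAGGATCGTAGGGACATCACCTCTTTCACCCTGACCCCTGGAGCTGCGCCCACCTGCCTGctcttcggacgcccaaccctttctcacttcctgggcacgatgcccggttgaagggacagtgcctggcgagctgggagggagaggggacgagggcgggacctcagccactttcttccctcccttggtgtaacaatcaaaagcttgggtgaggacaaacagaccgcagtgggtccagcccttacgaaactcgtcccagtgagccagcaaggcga
Col4a4: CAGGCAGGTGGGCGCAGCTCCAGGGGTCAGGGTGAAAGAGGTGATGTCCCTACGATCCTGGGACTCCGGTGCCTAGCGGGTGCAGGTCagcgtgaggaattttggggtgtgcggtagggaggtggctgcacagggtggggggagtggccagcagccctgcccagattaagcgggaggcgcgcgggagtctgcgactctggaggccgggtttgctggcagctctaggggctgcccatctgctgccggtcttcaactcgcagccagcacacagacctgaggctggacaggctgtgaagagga

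Col4a4 stood above Col4a3 in 9 of the 10 libraries. The ratio of Col4a4 to Col4a3 was 2.16, 2.57 and 1.99 in the FDG-increased libraries of the sham table, against 2.16, 2.40 and 2.07 in the sham libraries. In the RYGB table it was less even, at 2.14, 2.89 and 0.878 in FDG-decreased ileum and 2.57, 1.99 and 3.84 in FDG-increased ileum. Replicate 3 of each RYGB group holds the extremes. Both have little Col4a3, at 0.220 FPKM in the FDG-decreased library and 0.253 FPKM in the FDG-increased one. Their Col4a4 stood at 0.193 and 0.971 FPKM, in that order. Col4a3 stayed below the level needed for a test, and this pair was named after its values were seen.

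**Figure D3:**
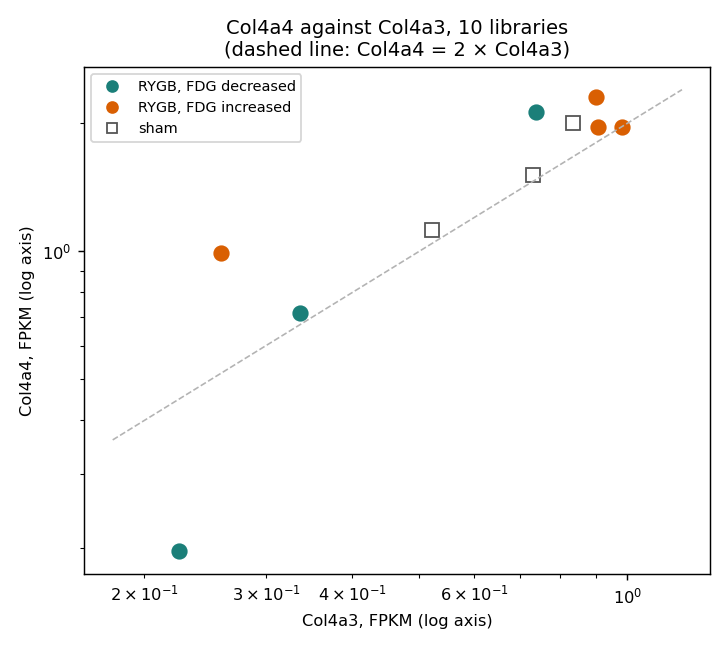
Col4a4 against Col4a3 in the 10 distinct libraries, in FPKM on log axes, coloured by group. The dashed line marks a Col4a4 level 2 times that of Col4a3. The FDG-decreased replicate 3 lies lowest, with a ratio of 0.878, and the FDG-increased library of the RYGB table alone lies farthest above the line, with 3.84.

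The remaining collagens whose groups did not overlap came from several structural classes. Col14a1 stood at 1.09, 0.905 and 1.03 FPKM in FDG-increased ileum, against 2.35, 5.24 and 1.57 FPKM in sham ileum. Sham replicate 2 was the high one, and the difference of -0.91 (95% interval -1.64 to -0.17, limma Benjamini-Hochberg adjusted p = 0.563) was -0.55 without it. Col15a1, which links basement membranes of vessels and muscle to the fibres around them, stood at 11.7, 12.4 and 11.6 FPKM in FDG-increased ileum, against 15.9, 18.1 and 19.1 FPKM in sham ileum. Both groups were tight here, with SDs of 0.441 and 1.61 FPKM, and the difference was -0.53 (95% interval -1.05 to -0.01, limma Benjamini-Hochberg adjusted p = 0.630). Col15a1 kept its sign in all 12 alternative fits, between -0.67 and -0.47.

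Col17a1 stood at 0.992, 0.711 and 0.689 FPKM in FDG-increased ileum, against 2.53, 1.28 and 1.25 FPKM in sham ileum. Sham replicate 1, the library with genes of the upper intestine, held the highest value, and without that library Col17a1 no longer reached the level for a test. Col8a1, a short-chain collagen of vessels and smooth muscle, stood at 0.934, 0.756 and 1.21 FPKM in FDG-increased ileum, against 1.61, 1.64 and 1.58 FPKM in sham ileum. The sham values were nearly equal and the FDG-increased values spread below them. The differences were -0.55 for Col17a1 and -0.42 for Col8a1, with limma Benjamini-Hochberg adjusted p of 0.650 and 0.679.

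The FDG-increased library outside this table divided these genes. On the scale of the sham table it had 12.9 FPKM of Col15a1 and 0.278 FPKM of Col17a1, below all sham libraries. Its Col14a1, 1.76 FPKM, was inside the sham range, and its Col8a1, 1.66 FPKM, was above all sham libraries.

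**Figure D4:**
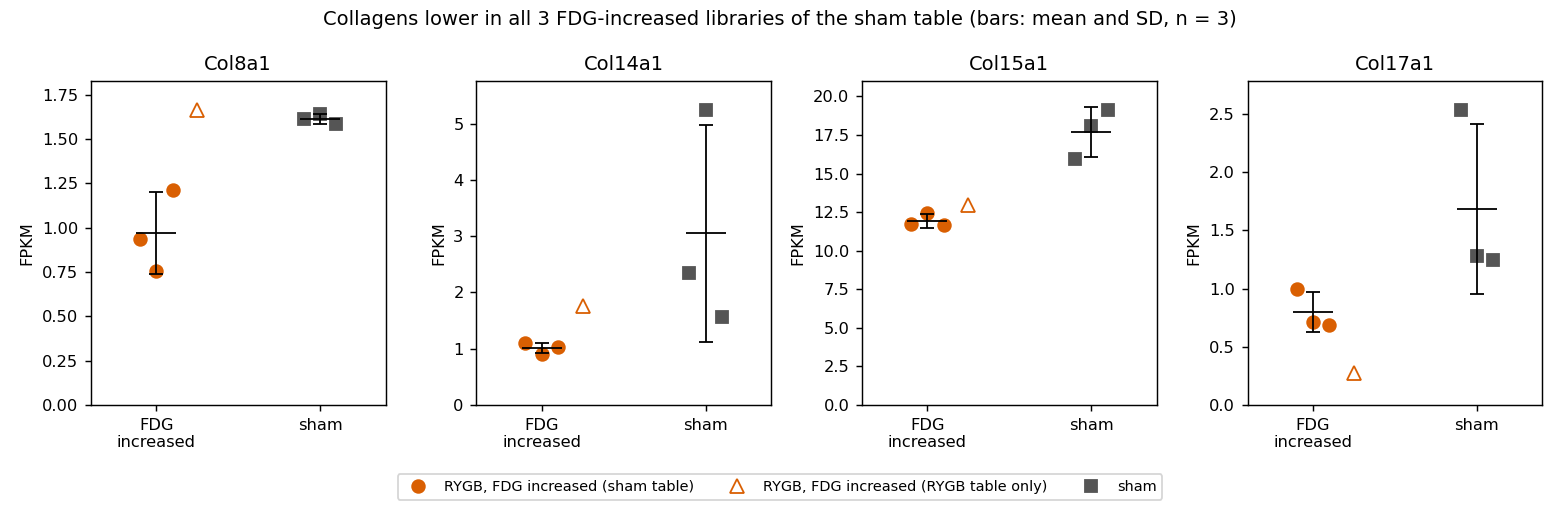
FPKM of Col8a1, Col14a1, Col15a1 and Col17a1 in the 3 FDG-increased libraries of the sham table (circles) and the 3 sham libraries (squares), with mean and SD, and in the FDG-increased library held only by the RYGB table (triangle, on the scale of the sham table). The triangle lies with the circles for Col15a1 and Col17a1 and reaches the sham values for Col8a1, at 1.66 FPKM, and Col14a1, at 1.76 FPKM.

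Promoter windows were found in the RefSeq table for 22 of the 27 collagens. Of the 5 tested collagens that lay below sham ileum without overlap in the sham table, Col1a1 and Col14a1 have no window. The windows of the others, Col8a1, Col15a1 and Col17a1, are shown. The RefSeq windows in GRCr8 are chr11:56246532-56246831 on the plus strand, chr5:66297296-66297595 on the plus strand and chr1:256518808-256519107 on the minus strand, in that order. Both strands were searched for the TATA box TATAAA, the CCAAT box CCAAT and the GC box GGGCGG, and matches are in capitals.
Col8a1: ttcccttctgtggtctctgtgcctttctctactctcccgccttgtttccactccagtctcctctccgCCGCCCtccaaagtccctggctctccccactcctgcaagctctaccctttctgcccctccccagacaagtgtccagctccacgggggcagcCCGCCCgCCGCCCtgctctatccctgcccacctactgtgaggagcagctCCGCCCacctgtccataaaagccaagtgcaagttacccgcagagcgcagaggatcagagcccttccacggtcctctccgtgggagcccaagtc
Col15a1: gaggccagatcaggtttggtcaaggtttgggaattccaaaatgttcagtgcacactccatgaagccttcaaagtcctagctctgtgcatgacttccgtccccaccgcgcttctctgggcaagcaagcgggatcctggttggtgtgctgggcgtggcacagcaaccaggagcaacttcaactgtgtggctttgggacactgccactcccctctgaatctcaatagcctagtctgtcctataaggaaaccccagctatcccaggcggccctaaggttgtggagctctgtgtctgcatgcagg
Col17a1: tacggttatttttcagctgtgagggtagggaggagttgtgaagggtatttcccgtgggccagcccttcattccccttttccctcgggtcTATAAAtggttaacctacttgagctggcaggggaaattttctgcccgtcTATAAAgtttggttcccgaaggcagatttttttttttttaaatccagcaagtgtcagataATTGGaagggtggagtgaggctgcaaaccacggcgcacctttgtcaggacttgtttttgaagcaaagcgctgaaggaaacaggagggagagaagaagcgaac

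The 3 windows had little in common by these letters. That of Col8a1 held 4 GC box matches, that of Col17a1 held 2 TATA box matches and 1 CCAAT box match, and that of Col15a1 held none of the 3 motifs. Of all 33469 rat promoter windows of this length, 33.1% held the GC box, 14.2% the TATA box and 37.5% the CCAAT box. Among the 22 collagens with a window, 12 held a GC box, 6 a CCAAT box and 3 a TATA box. A match describes the letters only.

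The other tested collagens overlapped between FDG-increased and sham ileum. Col18a1, whose C-terminal fragment is endostatin, stood at 50.2, 42.1 and 30.7 FPKM in FDG-increased ileum, against 54.3, 31.5 and 57.0 FPKM in sham ileum. Its 95% interval ran from -0.97 to 0.59 on the log2 scale. Col6a2 averaged 66.3 ± 11.6 FPKM in FDG-increased ileum and 73.6 ± 19.0 FPKM in sham ileum (SD, n = 3 each), a difference of -0.13. Col6a4 had the highest difference of the 18, 0.48, with 20.0, 25.1 and 31.9 FPKM in FDG-increased ileum against 13.8, 16.3 and 25.2 FPKM in sham ileum. Its interval, -0.23 to 1.18, holds 0. Col11a2, Col13a1, Col16a1, Col23a1 and Col27a1 differed by -0.38 to 0.03.

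**Figure D5:**
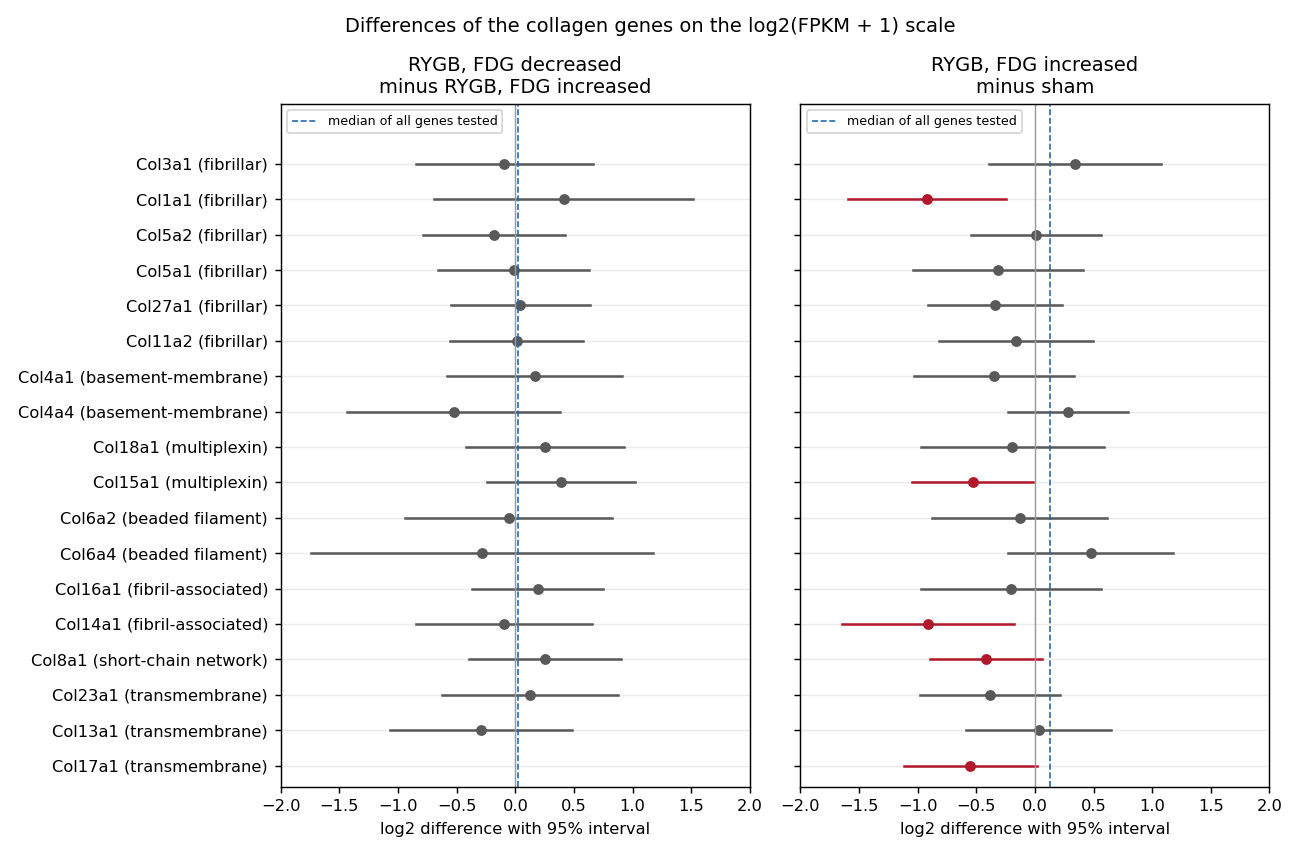
Differences on the log2(FPKM + 1) scale with 95% intervals from limma, for FDG-decreased minus FDG-increased ileum (left) and FDG-increased minus sham ileum (right). Red marks genes whose FDG-increased libraries all lie below all sham libraries, and the dashed line is the median of all genes tested. In the right panel 13 of 18 collagens lie below 0 while the median of all genes is 0.13, and in the left panel 8 of 17 lie below 0.

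Genes that work with collagens were counted in lists. Of their 75 members tested in the sham table, limma with Benjamini-Hochberg adjustment called 0, beside 0.037% of all genes, and 9 had an unadjusted p under 0.05, beside 7.84% of all genes. Of 9 tested basement membrane partners (laminins, nidogens, perlecan and others), 8 lay lower in FDG-increased ileum, with a median of -0.34. Of all genes tested, 35.3% lay lower, and their median was 0.13. Lama5, the main laminin alpha chain under intestinal epithelium, differed by -0.75. Fibril partners (small proteoglycans, fibronectin, elastin and others) lay lower for 11 of 13, with a median of -0.26, and Bgn, the proteoglycan biglycan, differed by -0.71. Thbs2 and Mfap5 among them averaged 0.871 and 0.689 FPKM in FDG-increased ileum and passed the level filter through the sham libraries, so they had to lie lower. Thbs1, the matrix protein thrombospondin 1, went the other way, at 128, 143 and 245 FPKM in FDG-increased ileum against 35.2, 59.5 and 78.8 FPKM in sham ileum.

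Enzymes that fold and modify collagen chains lay higher for 9 of 11, with a median of 0.28, led by P4ha1, a subunit of prolyl 4-hydroxylase, with a difference of 0.89. Proteases and inhibitors of collagen breakdown lay higher for 10 of 11, with a median of 0.22, among them Mmp7 by 0.97 and Mmp10 by 0.96, both matrix metalloproteinases. Enzymes of propeptide cleavage and cross-linking were evenly divided, 6 of 11 higher with a median of 0.03, and of them Loxl1, a lysyl oxidase, differed by -0.38. Collagen receptors lay lower for 4 of 5, with a median of -0.31, among them the integrin chains Itga1 by -0.47 and Itga11 by -0.40. In the TGF-beta list, a pathway that drives collagen genes in fibroblasts, 10 of 15 lay higher with a median of 0.07. Its member Tgfbr3, a co-receptor, differed by -0.70. Beside all these counts, 64.7% of all genes tested in the sham table lay higher and 35.3% lower, with a median of 0.13.

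Levels of cell type markers in the same libraries are given beside these results. Fibroblast markers, 6 of 8 tested, summed to 235 to 570 FPKM in FDG-increased ileum and to 203 to 494 FPKM in sham ileum, with 4 of 6 lower and Cd34 listed at 0 throughout. Smooth muscle markers, 8 of 8 tested, summed to 1127 to 1261 FPKM in FDG-increased ileum and to 881 to 1337 FPKM in sham ileum, with 4 of 8 lower. Endothelial markers summed to 50.6 to 83.8 FPKM in FDG-increased ileum and to 51.1 to 77.3 FPKM in sham ileum. Epithelial markers, all 6 higher, summed to 4498 to 6624 FPKM in FDG-increased ileum and to 2868 to 4579 FPKM in sham ileum. Leukocyte markers, all 4 higher, summed to 63.8 to 116.6 FPKM in FDG-increased ileum and to 29.8 to 48.4 FPKM in sham ileum. Adipocyte markers, all 6 lower, summed to 62.6 to 107 FPKM in FDG-increased ileum and to 62.2 to 466 FPKM in sham ileum. Neuron and glia markers, 3 of 6 tested and all lower, summed to 6.71 to 10.9 FPKM in FDG-increased ileum and to 5.90 to 34.1 FPKM in sham ileum. The adipocyte genes Plin1 and Lep and the neuronal gene Elavl4 reached the level for a test through the sham libraries alone. Of 5 mesothelial markers only Krt19, which epithelium also makes, reached the level for a test. The part of these markers in the collagen differences was not tested.

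No collagen separated FDG-decreased from FDG-increased ileum in the RYGB table. In limma with Benjamini-Hochberg adjustment 0 of 17 collagens and 0 of 10739 genes were called, which is 0% of all genes, and at an unadjusted p under 0.05 there were 0 collagens and 110 genes (1.02%). Of the 17 collagens, 9 had a difference above 0 and 8 below, beside 55.2% and 44.8% of all genes, and the median of 0.01 stood beside 0.02 over all genes. In 0 of 17 did the groups separate, beside 1.95% of all genes that lay higher and 1.26% that lay lower in all FDG-decreased libraries. Libraries of the same replicate number deviated together in this table, so a fit with the replicate number as a block was also read. With the block limma called 122 genes (1.14%) and again 0 collagens. At an unadjusted p under 0.05 with the block there were 3 of 17 collagens, Col1a1, Col15a1 and Col4a4, beside 9.52% of all genes, and their Benjamini-Hochberg adjusted p by limma were 0.501, 0.460 and 0.461. Col4a4 averaged 0.994 FPKM in FDG-decreased ileum and passed the level filter through the FDG-increased libraries, so it had to lie lower.

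Of the fibrillar collagens in the RYGB table, Col1a1 stood at 22.3, 27.3 and 42.5 FPKM in FDG-decreased ileum, against 16.6, 14.3 and 44.1 FPKM in FDG-increased ileum. Replicate 3 was the highest library of both groups, and the groups overlapped. Within pairs the difference was 0.41, 0.89 and -0.05 on the log2 scale, and the mean, 0.41, had a 95% interval of -0.69 to 1.52, and of 0.013 to 0.81 with the block. Leaving out 1 library at a time gave 0.12 (without FDG-increased replicate 2) to 0.90 (without FDG-increased replicate 3). Pairs 1 and 2 each shared a sequencing lane, and pair 3 did not. Col3a1 stood at 145, 131 and 120 FPKM in FDG-decreased ileum, against 150, 158 and 118 FPKM in FDG-increased ileum. The difference was -0.09 (95% interval -0.85 to 0.67), and Col3a1 was lowest in replicate 3 of both groups, where Col1a1 was highest. The ratio of Col3a1 to Col1a1 was 6.51, 4.81 and 2.84 in FDG-decreased ileum and 9.04, 11.03 and 2.67 in FDG-increased ileum (exact two-sided permutation test on the log2 ratio, p = 0.6).

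Col5a2 was lower in FDG-decreased ileum in all 3 pairs, by -0.24, -0.17 and -0.12, and its groups, 13.6 to 18.5 FPKM in FDG-decreased ileum and 16.2 to 21.0 FPKM in FDG-increased ileum, overlapped. Col5a1 averaged 10.8 ± 1.81 FPKM in FDG-decreased ileum and 11.03 ± 2.602 FPKM in FDG-increased ileum (SD, n = 3 each). The 6 tested fibrillar collagens had a median of 0.00 with 3 on each side. The summed level of the fibrillar collagens was 193 ± 3.64 FPKM in FDG-decreased ileum and 199 ± 4.16 FPKM in FDG-increased ileum (SD, n = 3 each). These sums nearly met without overlap, at 188.9 to 195.3 FPKM in FDG-decreased ileum and 195.8 to 203.9 FPKM in FDG-increased ileum. The log2 difference was -0.046. The sum is given no test, since its members were chosen with earlier results known.

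Type IV chains of the RYGB table again differed in sign. Col4a1 stood at 38.3, 41.0 and 57.2 FPKM in FDG-decreased ileum, against 40.0, 33.1 and 48.0 FPKM in FDG-increased ileum, a difference of 0.16 that turned to -0.0033 with sequencing lane as a covariate. Col4a4 had the largest difference of the 17 collagens, -0.53, with 0.702, 2.09 and 0.193 FPKM in FDG-decreased ileum against 2.26, 1.92 and 0.971 FPKM in FDG-increased ileum. FDG-decreased replicate 2 lay inside the FDG-increased range and the other two below it, and the pairs gave -0.94, 0.08 and -0.72. Leaving out 1 library at a time gave -0.90 (without FDG-decreased replicate 2) to -0.21 (without FDG-decreased replicate 3).

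Of the basement membrane zone, Col15a1 stood at 12.6, 15.8 and 21.0 FPKM in FDG-decreased ileum, against 12.2, 11.4 and 12.7 FPKM in FDG-increased ileum. It was higher in FDG-decreased ileum in all 3 pairs, by 0.05, 0.44 and 0.68, and the lowest FDG-decreased value lay just under the highest FDG-increased one. The difference was 0.39 (95% interval -0.24 to 1.02, and 0.03 to 0.75 with the block). Col18a1 stood at 38.5, 39.3 and 40.4 FPKM in FDG-decreased ileum, against 41.2, 30.1 and 28.9 FPKM in FDG-increased ileum, a difference of 0.25. Its FDG-decreased values were close to each other and lay within the FDG-increased range.

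Of the remaining members, Col8a1 was higher in all 3 pairs and Col13a1, a transmembrane collagen, lower in all 3, by -0.52, -0.25 and -0.11. In all, 2 of 17 collagens were higher in every pair and 2 of 17 lower, 11.8% each, beside 17.2% and 12.7% of all genes. Col6a4 differed by -0.28, with 15.7, 31.4 and 6.995 FPKM in FDG-decreased ileum and 24.6, 31.3 and 8.42 FPKM in FDG-increased ileum. It was low in both libraries of pair 3, and its sign turned to 0.25 with lane as a covariate. Col6a2 stood at 72.5, 41.3 and 40.9 FPKM in FDG-decreased ileum and 68.3, 52.2 and 38.9 FPKM in FDG-increased ileum, highest in both libraries of pair 1. Col14a1 averaged 1.13 ± 0.821 FPKM in FDG-decreased ileum and 1.21 ± 0.449 FPKM in FDG-increased ileum (SD, n = 3 each).

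Among the companion genes of the RYGB table, Thbs1 was called with the replicate block and not without it. Thbs1 stood at 48.0, 73.7 and 50.2 FPKM in FDG-decreased ileum, against 139, 240 and 78.5 FPKM in FDG-increased ileum. With the block it fell by 1.28, with a limma Benjamini-Hochberg adjusted p of 0.0204 with the block and 1.00 without it. Basement membrane partners lay higher in FDG-decreased ileum for 8 of 9 (median 0.15), fibril partners for 6 of 12 (median -0.03), and TGF-beta genes for 8 of 15 (median 0.02). Folding enzymes lay higher for 4 of 11 (median -0.06), though P4hb, the partner subunit of prolyl 4-hydroxylase, was 715, 693 and 755 FPKM in FDG-decreased ileum against 551, 578 and 439 FPKM in FDG-increased ileum, without overlap. Cleavage and cross-linking enzymes lay higher for 7 of 10 (median 0.11), breakdown genes for 5 of 11 (median -0.13) and receptors for 4 of 5 (median 0.07). Beside these counts, 55.2% of all genes tested in the RYGB table lay higher, with a median of 0.02.

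Pair 3 of the RYGB table also stood apart in its cell markers. Smooth muscle markers summed to 1058, 863 and 1581 FPKM in FDG-decreased ileum and to 1150, 1105 and 2030 FPKM in FDG-increased ileum, highest in replicate 3 of both groups, as Col1a1 was. Epithelial markers summed to 5010, 5406 and 2853 FPKM in FDG-decreased ileum and to 5597, 6492 and 2914 FPKM in FDG-increased ileum, lowest in replicate 3 of both. Leukocyte markers did likewise, at 60.3, 85.9 and 10.1 FPKM in FDG-decreased ileum and 63.0, 114 and 11.2 FPKM in FDG-increased ileum. Fibroblast markers were highest in replicate 2 of both groups, at 517 and 559 FPKM. Genes of the upper intestine summed to 12.3 to 40.7 FPKM in FDG-decreased ileum and to 0.720 to 2.88 FPKM in FDG-increased ileum, and Lct and Gip among them were called with the block, Lct having passed the level filter through the FDG-decreased libraries. The part of these markers in the collagen values was not tested.

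For FDG-decreased against sham ileum the values come from separate tables and were not tested. On the scale of the sham table, Col1a1 stood at 22.8, 27.9 and 43.4 FPKM in FDG-decreased ileum, against 43.9, 31.1 and 33.3 FPKM in sham ileum. Col15a1 stood at 12.9, 16.2 and 21.4 FPKM in FDG-decreased ileum, against 15.9, 18.1 and 19.1 FPKM in sham ileum. For Col1a1, FDG-decreased replicates 1 and 2 lay below all sham libraries and replicate 3 lay inside their range. For Col15a1, FDG-decreased replicate 1 lay below all sham libraries, replicate 2 inside their range and replicate 3 above it. Of 17 collagens that averaged 1 FPKM or more across the 10 libraries, 0 had all 7 RYGB libraries below the sham libraries, beside 0.714% of all genes, and 0 had all above, beside 0.918%. Col17a1, with a mean of 0.997 FPKM just under that level, was at 0.278 to 0.992 FPKM in the 7 RYGB libraries and at 1.25 to 2.53 FPKM in the sham libraries. It was named after its values were seen.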

How the data were processed

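Per the labels, ileum was flash frozen, total RNA was purified by a Qiagen column kit, and stranded total RNA libraries were made after ribosomal depletion. Per the submitters' processing notes, bcl2fastq 1.8.4, STAR 2.6.0a, Cufflinks 2.2.1, Cuffdiff and DESeq2 1.24.0 were used, and their settings are not given in the sources used here. These notes name the human build hg19 although the symbols are rat ones. The authors deposited FPKM per gene and library in 2 tables, each with its own scaling; 0 sample columns went unused, and 25 symbols turned into dates were left out. The FPKM hold no counts, and low values of different libraries showed no common step (their fullest ratio bin held 4.89%), so the depth is unknown.

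Values were analysed as log2(FPKM + 1), a scale that understates changes of low genes, keeping genes that averaged 1 FPKM or more across the 6 columns of a table. limma 3.58.1 in R 4.3.3 was fitted on all such genes of a table, with a mean-variance trend and robust moderation. Its p-values were adjusted by Benjamini-Hochberg and called under 0.05. The fit was first tried on simulated data whose spread was set in advance, which gives no power or error rate for these data. The members, gene lists and tests were chosen with earlier results of these data known. Named with values were 14 preset collagens where they passed the filter, any called, and the 5 with the largest difference per comparison; Col8a1, Col4a3 and others named beyond these were chosen after their values were seen.

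Columns were matched to samples by title, and to the group alone for FDG-increased columns of the sham table, whose numbers conflict with the shared libraries. Shared libraries agreed within 1% for 99.985% and 99.941% of genes. Deviations from the group mean correlated at 0.85, 0.76 and 0.77 between RYGB-table libraries of equal number, so the numbers in the labels were taken to pair them. What the numbers share is not given. Alternatives changed the pseudocount, filter, scaling, replicates, block and lane, the lane fits being added after the data were seen. Some companion genes are not reported here.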

Additional observations from a re-analysis of the deposited data

How the results depend on the processing

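No collagen was called in any of the 13 fits of either table. In the RYGB table limma called 122 genes with the replicate block and 0 to 1 genes with 1 library left out, against 0. In the sham table, where limma called 4 genes, it called 1 with a pseudocount of 0.1, 1 with the columns shifted to the same median, 0 with no filter on low values, 0 with quantile normalization, 39 with the replicate block and 0 to 13 with 1 library left out. At an unadjusted p under 0.05 limma had 1055 genes with no filter and 812 with quantile normalization. Same-numbered libraries of the sham table did not deviate together (correlations 0.35, -0.50 and -0.25), so its block rests on a shared number only. The median of the basement-membrane collagens was -0.47 with a pseudocount of 0.1 in the RYGB table, against -0.18. In the sham table it was 0.19 with no filter, which adds Col4a3, and -0.16 with the columns shifted, against -0.03.

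Of the differences of named collagens, 252 values under the alternatives kept their direction and 22 changed sign, none of them called. In the RYGB table lane as a covariate gave -0.0033 for Col4a1 and 0.25 for Col6a4. Leaving out 1 library gave -0.01 to 0.29 for Col4a1, -0.82 to 0.23 for Col6a4, -0.20 to 0.13 for Col14a1, -0.19 to 0.13 for Col5a1 and -0.33 to 0.14 for Col6a2. In the sham table quantile normalization gave -0.057 for Col3a1 and -0.17 for Col5a2. Col5a2 was -0.12 with the columns shifted, -0.18 with lane 7 libraries alone and -0.069 to 0.11 with 1 library left out, and Col6a2 was then -0.35 to 0.025. The cause was not tested. Depth is unknown, and 3 libraries a group leave wide intervals. Col14a1 gave no value without FDG-decreased replicate 3, nor Col17a1 without sham replicate 1, since each then dropped under the filter.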
